A study of Homo sapiens with 9 samples.

Results

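Cytosolic ribosomal protein genes are the genes for the proteins of the ribosome that works in the cytosol. They were taken as the rows whose symbol is RPL or RPS followed by a number and at most a closing A, X or L, together with RPLP0, RPLP1, RPLP2 and RPSA. The rule found 81 genes among the 26475 rows of the table. Of these, 32 encode proteins of the small (40S) subunit and 49 proteins of the large (60S) subunit. The set includes 4 paralogs of other members, RPL3L, RPL10L, RPL39L and RPS27L, and 77 genes without them. A further 54 rows begin with RPL or RPS and lie outside the rule, among them 31 pseudogenes and the kinases of ribosomal protein S6. The rule reads gene symbols only, but it was set with earlier results of these data known. In all, 79 of the 81 genes passed the filter on low counts and were tested. RPL10L, a testis paralog, was at 0 counts in all 9 libraries. RPL3L, a paralog of heart and skeletal muscle, had 2 counts in knockdown replicate 3 and 0 counts in the other 8 libraries.

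The small subunit decodes mRNA, and the large subunit joins amino acids and releases the growing chain through an exit tunnel. Most ribosomal proteins are needed in equal number, and their mRNAs are among the most abundant in growing cells. Their transcripts typically begin with a C and a run of pyrimidines, the 5′ terminal oligopyrimidine (TOP) tract, through which mTORC1 and the RNA-binding protein LARP1 control their translation and stability. Some ribosomal proteins also act outside the ribosome. RPL5 and RPL11, for example, bind MDM2 together with 5S rRNA.

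RNA was sequenced from MDA-MB-231, a breast cancer line of the triple-negative, mesenchymal kind, in 3 groups of 3 libraries. Knockdown cells were stably transduced with pLKO.1 carrying a short hairpin RNA against ACSL4, an enzyme that activates polyunsaturated fatty acids. PRGL493 cells were the control cells given PRGL493, an ACSL4 inhibitor, and control cells were stably transduced with the empty pLKO.1 vector. All groups therefore carry the vector, and a lone cell line was used. Neither the hairpin sequence nor the dose, vehicle or duration of PRGL493 is in the labels. The series text describes the libraries of a group as different batches of cells, so p-values here reflect how batches of a given cell population varied.

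Libraries of knockdown cells held 29.5, 23.7 and 27.6 CPM of ACSL4, those of PRGL493 cells 333, 349.9 and 360.00 CPM and those of control cells 342, 339 and 366 CPM, where CPM are counts brought to a shared library size by TMM scaling. All 3 knockdown libraries were far below the others. Their labels fit the targeted gene. The mesenchymal markers VIM and CD44 lay between 1280 and 1820 CPM in every library, and the estrogen receptor gene ESR1 and the luminal factor FOXA1 at 0.0529 CPM or below. Of the other genes listed as low or absent in this line, PGR and KRT5 did not exceed 0.156 CPM, and CDH1 did not exceed 2.01 CPM. The rest of that list was detected, with GATA3 at 10.7 to 15.3, EPCAM at 8.68 to 30.9 and ERBB2 at 69.4 to 104 CPM. Leukocyte (PTPRC, CD3E) and fibroblast (COL3A1, PDGFRA, DCN) markers did not exceed 0.169 CPM, and the endothelial marker PECAM1 lay between 1.12 and 3.1 CPM. Library totals ran from 28673940 to 43027217 counts. Knockdown replicate 2 stands apart from the other libraries: relative to the control mean, its other genes with transcripts of up to 1000 bp stood at a median log2 of 0.22 and those over 4000 bp at -0.19. Ribosomal protein transcripts are short, so several of the counts on knockdown cells are also given without that library.

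The start of the transcript shows what many members have in common beyond their names. RefSeq promoter entries (GRCh38.p14) were at hand for 64 of the 81 genes. A tract was counted where the annotated first base is a C that opens an unbroken run of at least 5 pyrimidines, read only on the strand that matches the mRNA. At least 1 annotated start of 46 of the 64 genes (71.9%) has such a tract, against 1404 of 27305 genes with an entry (5.14%). Among the tested genes with an entry it was 747 of 10439 (7.16%). Among entries rather than genes, 46 of 79 of the members (58.2%) and 4.07% of all 35116 have it. Windows of 30 bases are shown for members that return below, with 15 bases on either side of the boundary before the annotated start. Capitals mark the tract from the annotated first base, and the runs differ in length from 5 bases in RPL41 to 19 in RPL39, of which 15 fit in the window.
RPL41, chr12:56116618-56116647, plus strand: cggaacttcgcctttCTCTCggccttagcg
RPL39, chrX:119791616-119791645, minus strand: ttcttccgccagcttCCCTCCTCTTCCTTT
RPS27, chr1:153990747-153990776, plus strand: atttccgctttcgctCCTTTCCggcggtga
RPS21, chr20:62387088-62387117, plus strand: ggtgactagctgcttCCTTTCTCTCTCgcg
RPLP2, chr11:809952-809981, plus strand: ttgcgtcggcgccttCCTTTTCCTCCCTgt
RPL12, chr9:127451392-127451421, minus strand: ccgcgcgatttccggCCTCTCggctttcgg
RPS24, chr10:78033848-78033877, plus strand: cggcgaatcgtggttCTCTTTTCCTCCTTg
RPL35A, chr3:197950175-197950204, plus strand: cggcggggcctcgtcCTTCTCTTaccgcca
RPL36, chr19:5690280-5690309, plus strand: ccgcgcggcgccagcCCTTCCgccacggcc
RPS29, RPL9, RPL3 and RPS27L have an entry but no such tract at the annotated start. Their windows are shown for contrast and hold no capitals.
RPS29, chr14:49598696-49598725, minus strand: ccccgagcgcgcagctggcagcggtggttg
RPL9, chr4:39458908-39458937, minus strand: gtacgtaatgacgacagacgttctttcttt
RPL3, chr22:39319609-39319638, minus strand: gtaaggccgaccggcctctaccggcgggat
RPS27L, chr15:63157463-63157492, minus strand: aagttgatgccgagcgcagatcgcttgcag
No tract at the annotated base says only that these letters are not at that base, since cells may use a neighbouring start.

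Together the 81 genes took 3.59%, 4.29% and 3.79% of the counts of the knockdown libraries, 3.20%, 2.97% and 3.12% of those of the PRGL493 libraries, and 3.27%, 3.29% and 3.30% of those of the control libraries. Every knockdown library lay above every control library, and every PRGL493 library below, and the highest share was that of knockdown replicate 2. The means were 3.89% ± 0.360 in knockdown, 3.10% ± 0.115 in PRGL493 and 3.29% ± 0.0173 in control cells (SD, n = 3 each). The 40S genes averaged 1.42% ± 0.145 in knockdown, 1.11% ± 0.0470 in PRGL493 and 1.17% ± 0.0011 in control cells (SD, n = 3 each). The 60S genes averaged 2.47% ± 0.216 in knockdown, 1.98% ± 0.0678 in PRGL493 and 2.12% ± 0.0179 in control cells (SD, n = 3 each). A share is relative to all other RNA in the library, so these values say nothing of the amount of RNA per cell, and in bulk RNA fewer cells with a transcript and less of it per cell cannot be told apart. No test was made of a sum over the members.

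**Figure D1:**
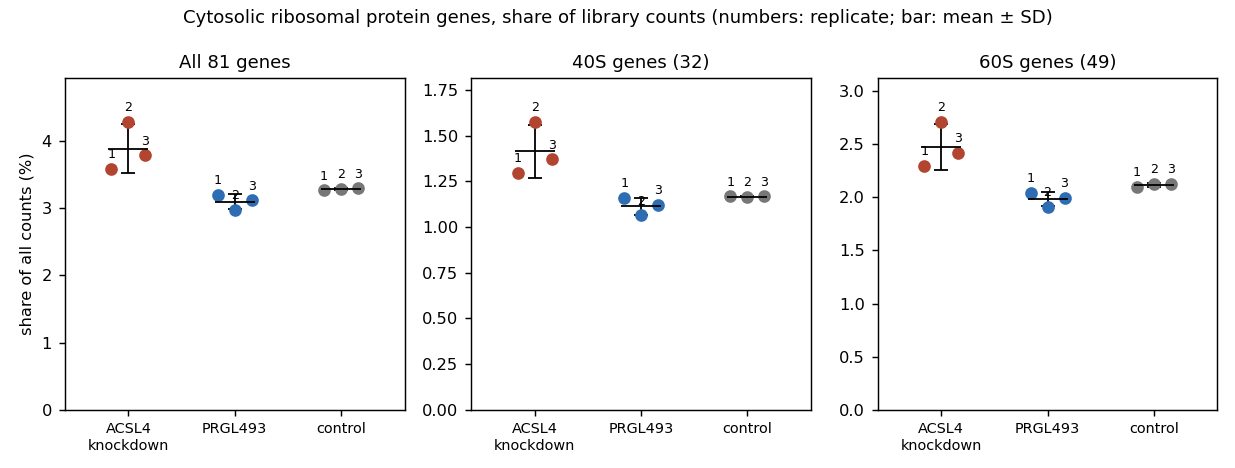
Share of all counts (percent, axis from 0) taken by the 81 ribosomal protein genes, the 32 genes of the 40S subunit and the 49 of the 60S subunit, for ACSL4 knockdown, PRGL493 and control libraries. Points are libraries with their replicate number, and bars are the mean ± SD. The 3 knockdown libraries spread over 3.59% to 4.29%, while the control libraries lie between 3.27% and 3.30%.

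Levels between genes are compared per length only, as counts per kb of transcript on the TPM scale of a library. Without the paralogs, the 77 genes spread over 31.0-fold in control cells, with a median of 964 (quartiles 565 and 1577). With the coding length in place of the transcript length the spread was 12.6-fold. RPLP0, the core of the ribosomal stalk, was highest on the transcript scale at 4061, 4868 and 4328 in knockdown, 3950.0, 3883 and 3912 in PRGL493 and 3733, 4076 and 3913 in control libraries. RPL13A and RPS18 followed in PRGL493 and control cells. RPS26, a 40S protein of the mRNA exit region, was lowest at 146, 151 and 142 in knockdown, 144, 118 and 132 in PRGL493 and 126, 128 and 124 in control libraries. RPS29 and RPS28 stood next to it, and their control levels of 149 ± 9.05 for RPS29 and 149 ± 1.84 for RPS28 (SD, n = 3 each) did not differ beyond their spread. The order of the 77 genes barely moved between groups, with Spearman's rho of 0.995 between knockdown and control means and 0.988 between PRGL493 and control means. These are descriptions across genes that share libraries and annotated lengths. RPL13A was highest and RPS26 again lowest when the coding length was used. The testis paralog RPL39L and the p53-induced paralog RPS27L were below all of them in each group.

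In ACSL4 knockdown cells ribosomal protein mRNAs were higher, by modest amounts and across both subunits. Of 79 genes tested, 55 were called higher than in control cells at an edgeR adjusted p below 0.05, beside 14.7% of all 14135 genes tested. None was called lower (0 of 79), beside 15.3% of all genes, and at an unadjusted p below 0.05 there were 64 higher and 0 lower. DESeq2 called 56 higher and 0 lower. The median log2 fold change was 0.25 over the 79 genes and 0.00 over all genes tested, and 78 of the 79 values were positive. In 56 of the 79 genes every knockdown library lay above every control library, beside 20.8% of all genes. The quartiles of the log2 fold changes were 0.17 and 0.31, and the values ran from -0.01 to 0.53.

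Knockdown replicate 2 is part of this result. The count called higher was 49 without that library (median 0.18), 44 with a per-library trend on transcript length removed (median 0.15), and 35 with both (median 0.12, with RPL18, named after its value was seen, then called lower). Leaving out knockdown replicate 1 instead raised the count to 74. It was 51 without knockdown replicate 3, and 42, 45 and 47 without control replicates 1, 2 and 3. A fall to 49 calls is thus not particular to knockdown replicate 2. In all, 32 of the 55 calls held in each of the 21 other settings run.

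**Figure D2:**
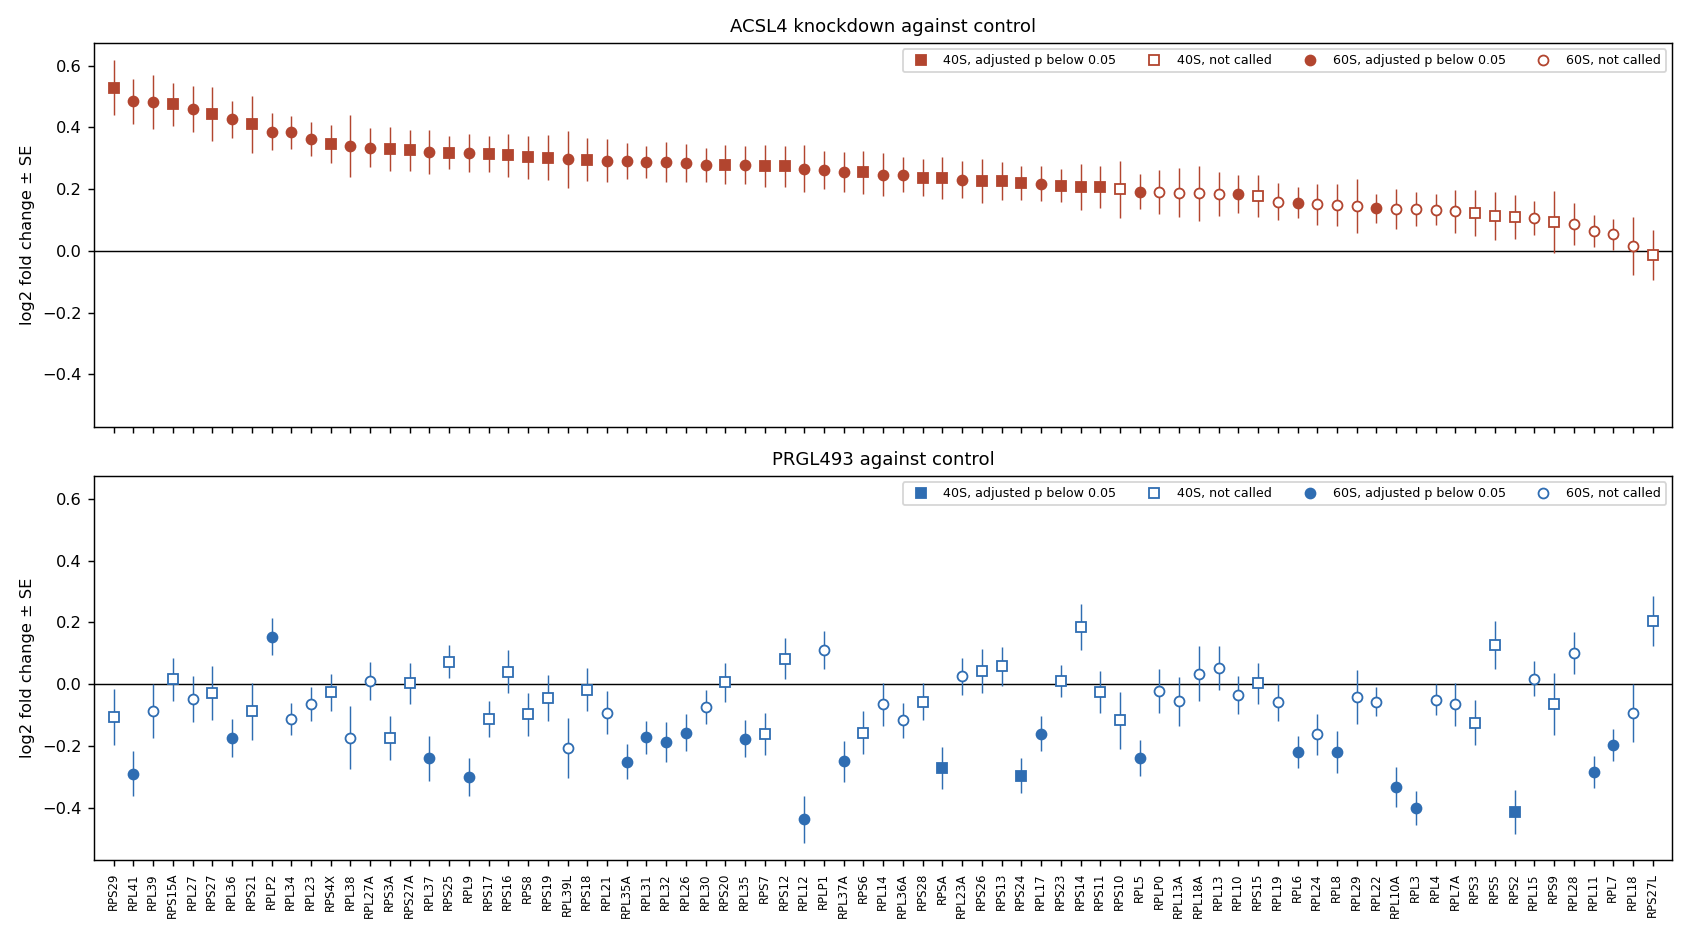
Log2 fold change ± SE of the 79 tested genes in ACSL4 knockdown (upper panel) and PRGL493 (lower panel) against the same control libraries, in the order of the knockdown change. Squares are 40S and circles 60S genes, and filled symbols have an edgeR adjusted p below 0.05. In the upper panel 55 symbols are filled, all above 0, and in the lower panel 23 are filled, 22 of them below 0.

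In the 40S subunit 25 of 32 genes were called higher, with a median log2 fold change of 0.26, and in the 60S subunit 30 of 47 with a median of 0.25. Without knockdown replicate 2 these counts were 23 and 26. The difference between subunits was not tested. RPS29, a small zinc-binding protein of the 40S head, had the highest log2 fold change. It was at 74.5, 69.5 and 55.8 CPM in knockdown libraries, against 44.0, 45.4 and 49.1 CPM in control libraries. All knockdown libraries lay above all control libraries, with replicate 3 nearest to them. Its log2 fold change was 0.53 (SE 0.09, edgeR adjusted p = 0.00045). RPS27, a zinc-finger protein of the 40S subunit, was at 125, 106 and 98.8 CPM in knockdown and 78.9, 82.8 and 81 CPM in control libraries. The groups did not overlap, and knockdown replicate 1 was the highest library. The log2 fold change was 0.44 (SE 0.09, edgeR adjusted p = 0.0017). RPS15A, a core protein of the 40S body, was at 144, 173 and 156 CPM in knockdown and 110.1, 110.3 and 119 CPM in control libraries. Here knockdown replicate 2 was highest, the groups again did not overlap, and the log2 fold change was 0.47 (SE 0.07, edgeR adjusted p = 9.2e-05). RPS21, another small 40S protein, was at 130.04, 129.9 and 97.4 CPM in knockdown libraries, against 93.6, 88.4 and 86.9 CPM in control libraries. Replicates 1 and 2 were alike and replicate 3 lay just above the controls. The log2 fold change of 0.41 (SE 0.09, edgeR adjusted p = 0.0049) lost its call with the length trend and knockdown replicate 2 both removed (edgeR adjusted p = 0.12).

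The mRNAs of other 40S proteins with known roles changed by less. RPS6, the substrate of the S6 kinases, was at 514, 655 and 552 CPM in knockdown and 477, 481 and 485 CPM in control libraries, without overlap. Its change was 0.25 (SE 0.07, edgeR adjusted p = 0.013). RPS4X, an X-linked protein of the 40S body, was at 916, 1085 and 990.4 CPM in knockdown and 749, 784 and 821 CPM in control libraries. The groups did not overlap, at 0.35 (SE 0.06, edgeR adjusted p = 0.00047). RPS27A, made as a fusion with ubiquitin, was at 232, 292 and 252 CPM in knockdown and 212, 199 and 209.7 CPM in control libraries. Its groups did not overlap either, and the change was 0.33 (SE 0.07, edgeR adjusted p = 0.0016). RPS2, of the mRNA entry channel, was not called. It was at 842, 1080.0 and 943 CPM in knockdown and 903, 879 and 872 CPM in control libraries, with knockdown replicate 1 below all controls and replicate 2 above all of them. Without knockdown replicate 1 it was called higher (edgeR adjusted p = 0.012).

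Among the genes of the 60S subunit RPL41 and RPL39 had the highest log2 fold changes. RPL41, the shortest protein of the ribosome, was at 156, 148 and 124 CPM in knockdown and 107, 101 and 97.3 CPM in control libraries. No knockdown library overlapped the controls, and replicate 3 was the lowest of them. The log2 fold change was 0.48 (SE 0.07, edgeR adjusted p = 0.00012). RPL39, which lines the polypeptide exit tunnel, was at 137, 133 and 108 CPM in knockdown and 89.7, 90.8 and 90.3 CPM in control libraries. The control libraries were nearly equal and every knockdown library exceeded them. The change was 0.48 (SE 0.09, edgeR adjusted p = 0.00096). RPL27, a 60S protein altered in some families with Diamond-Blackfan anaemia, was at 278, 329 and 278 CPM in knockdown and 201, 218 and 223 CPM in control libraries. Its groups did not overlap, and knockdown replicate 2 was highest. The change was 0.46 (SE 0.07, edgeR adjusted p = 0.00033). RPL36 was at 144, 140.1 and 128 CPM in knockdown and 101, 102 and 104 CPM in control libraries, again without overlap, at 0.43 (SE 0.06, edgeR adjusted p = 6.6e-05). Of the genes for 7 proteins around the tunnel exit, 6 were called higher, RPL19 being the exception at 0.16 (edgeR adjusted p = 0.059). RPL19 is named here after its value was seen.

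The ribosomal stalk, which recruits elongation factors, gave 3 calls among 4 genes. RPLP2 was at 246, 279.9 and 255 CPM in knockdown and 196, 201 and 201 CPM in control libraries, without overlap, at 0.39 (SE 0.06, edgeR adjusted p = 0.00015). Its partner RPLP1 was at 320.1, 379 and 351 CPM in knockdown and 282, 303 and 289 CPM in control libraries. Every knockdown library exceeded every control, and the change of 0.26 (SE 0.06, edgeR adjusted p = 0.004) was no longer called with the length trend removed (edgeR adjusted p = 0.063). RPLP0 was at 2009, 2582 and 2179 CPM in knockdown and 1889.5, 2074 and 1973 CPM in control libraries. Its groups overlapped, as knockdown replicate 1 lay within the controls, and 0.19 did not pass (SE 0.07, edgeR adjusted p = 0.06), although it was called in 6 other settings. RPL12, at the base of the stalk, was at 577, 751 and 653 CPM in knockdown and 541, 548 and 558 CPM in control libraries. The groups did not overlap, and knockdown replicate 2 was the highest. The change was 0.27 (SE 0.08, edgeR adjusted p = 0.016), and with the length trend removed the adjusted p was 0.057. Of the pair that carries 5S rRNA, RPL5 was at 852, 987 and 874 CPM in knockdown and 761, 806 and 809 CPM in control libraries. It was called without overlap, at 0.19 (SE 0.06, edgeR adjusted p = 0.018), and lost the call in 4 other settings, among them without control replicate 1 (edgeR adjusted p = 0.095). RPL11 was not, at 0.06 (SE 0.05, edgeR adjusted p = 0.38). Knockdown libraries held 303, 331 and 299 CPM of RPL11 and control libraries 299.8, 296 and 297 CPM, and replicate 2 alone exceeded them clearly.

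**Figure D3:**
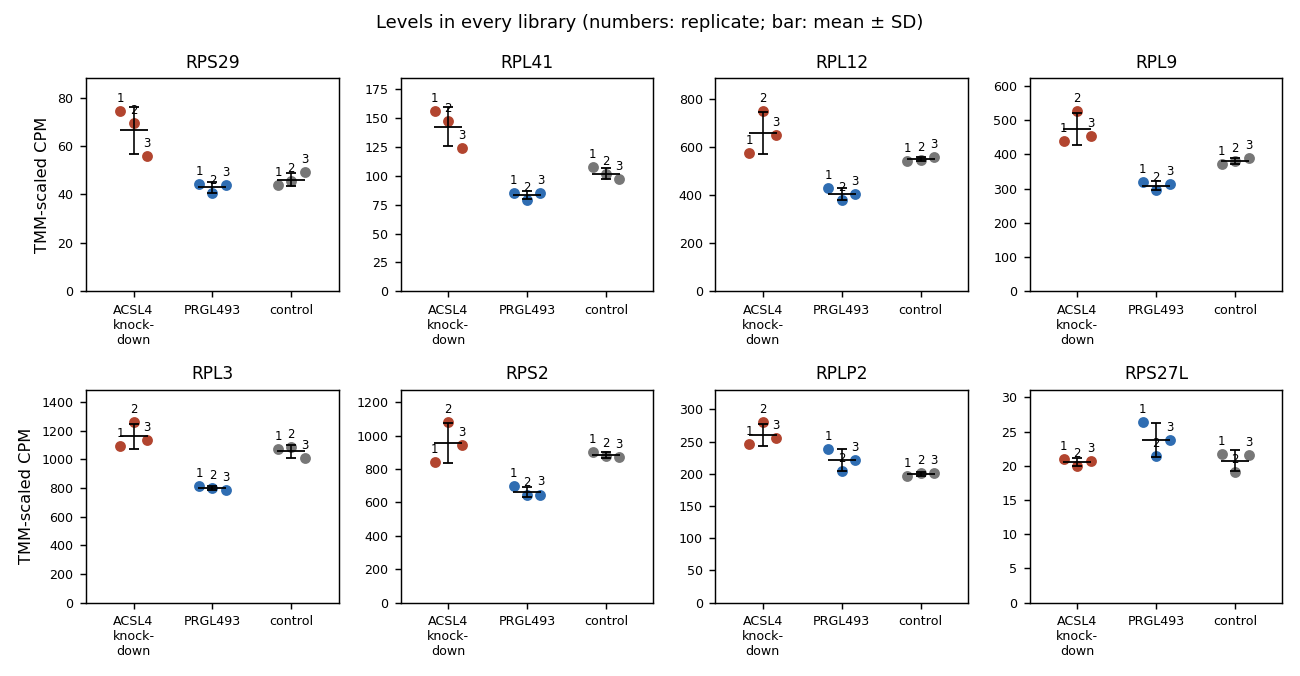
TMM-scaled CPM (axis from 0) of 8 ribosomal protein genes in every library of ACSL4 knockdown, PRGL493 and control cells. Points carry the replicate number, and bars are the mean ± SD. All of them but RPS2 and RPS27L have the 3 knockdown libraries above the controls, and RPL41, RPL12, RPL9, RPL3 and RPS2 have the 3 PRGL493 libraries below them.

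Coding length set the members apart from each other in knockdown cells. Among the 26 members with the shortest coding sequences (75 to 396 bp) 25 were called higher, with a median log2 fold change of 0.29. RPS27L was the exception. Of the next 26 (399 to 552 bp) 19 were called higher, with a median of 0.23, and of the 27 longest (564 to 1281 bp) 11, with a median of 0.16. Without knockdown replicate 2 the counts were 23, 17 and 9, and the medians 0.27, 0.17 and 0.08. Across the 79 members Pearson's r of the log2 fold change with log2 coding length was -0.56, -0.64 without knockdown replicate 2 and -0.30 without knockdown replicate 1. With the length trend removed it was -0.46. Transcript length, the measure planned, gave a weaker r of -0.399, and -0.396 without knockdown replicate 2. Across other genes r with log2 transcript length was -0.14. These correlations are across genes that share libraries, and no test is attached. GC content of the transcripts, which ran from 42.3% to 62.4%, gave -0.20.

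The 3 knockdown libraries did not hold the same pattern. Set against the mean of the control libraries, the median member stood at log2 0.14 in replicate 1, 0.38 in replicate 2 and 0.19 in replicate 3. In replicate 2 the shortest, middle and longest members were at 0.39, 0.40 and 0.33, so they were high at every length. Other genes with transcripts of up to 1000 bp, 1118 in number, were at 0.22 in the same library. In replicate 1 those other short genes were at 0.02, while the shortest members were at 0.32, the middle ones at 0.14 and the longest at 0.02. In replicate 3 the other short genes were at 0.07, and the members were at 0.24, 0.21 and 0.14 by rising length. Replicate 2 was the highest knockdown library for 66 of the 79 members and replicate 1 for 12, all among the 26 shortest. Replicate 3 was highest for 1 member. The length trend was removed from every library, as above, so the part played by the trend of replicate 2 alone was not measured. The source of that trend was not tested.

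**Figure D4:**
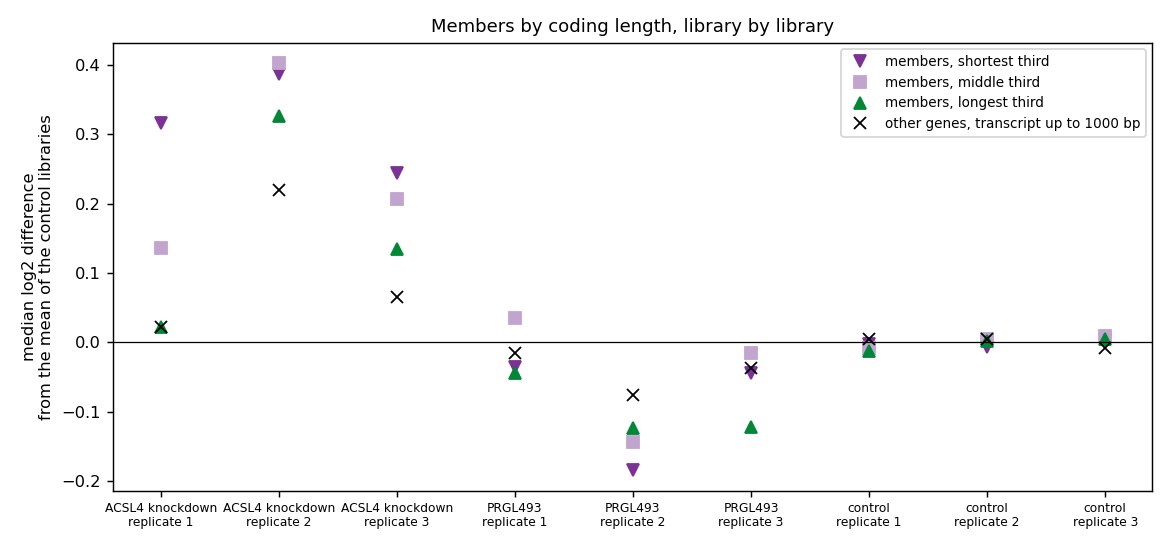
Median log2 difference from the mean of the control libraries, for each library of ACSL4 knockdown, PRGL493 and control cells. Triangles pointing down, squares and triangles pointing up are the 26 shortest, 26 middle and 27 longest members by coding length, and crosses are the 1118 other genes with transcripts of up to 1000 bp. In knockdown replicate 1 the shortest members lie at 0.32 and the other short genes at 0.02, while in replicate 2 both stand high.

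**Figure D5:**
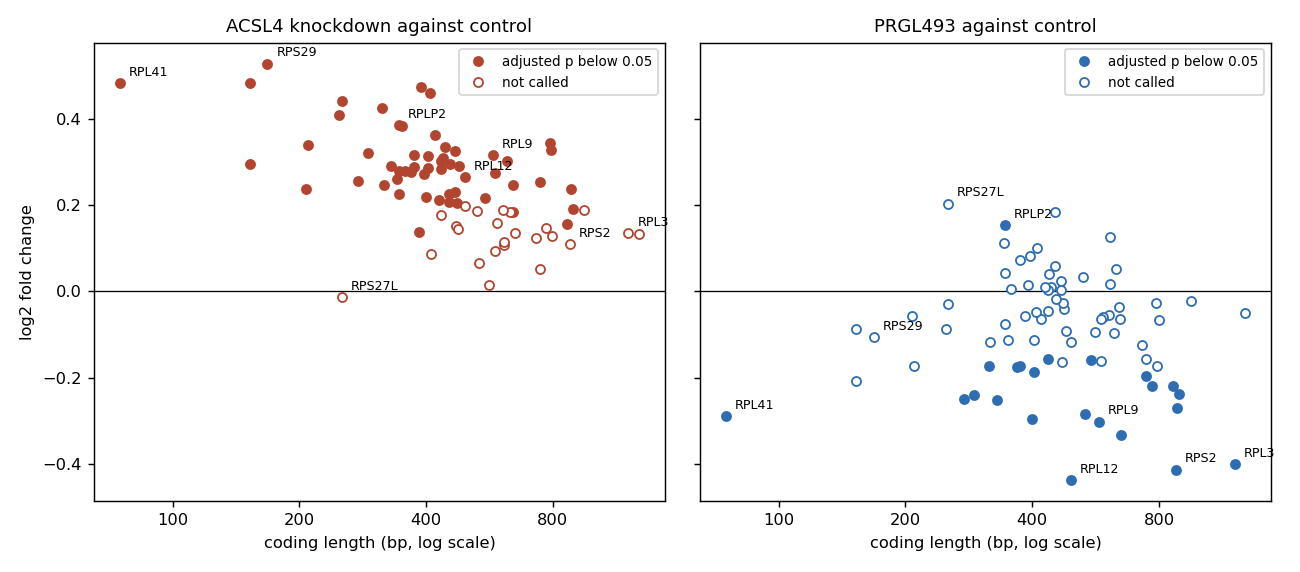
Coding length (bp, log scale) against log2 fold change of the 79 tested genes, for ACSL4 knockdown against control (left) and PRGL493 against control (right). Filled points have an edgeR adjusted p below 0.05. In knockdown the values fall with length (Pearson's r = -0.56), and in PRGL493 they do so little (-0.11).

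With PRGL493 some of these mRNAs, mostly of the 60S subunit, were lower, and hardly any was higher. Relative to control cells 22 of 79 genes were called lower at an edgeR adjusted p below 0.05, beside 20.4% of all genes tested, and 1 was called higher, beside 21.4%. The members called lower are thus near that background in number. The median log2 fold change was -0.08 over the members and 0.01 over all genes tested. In 33 members every PRGL493 library lay below every control library, beside 27.2% of all genes, and in 4 every one lay above, beside 30.1%. PRGL493 replicate 2 was the lowest of its group for 70 of the 79 members and is the library with the fewest counts. Without it 14 genes were called lower and 2 higher. With only the PRGL493 and control libraries in the fit 34 were called lower and 5 higher, with the length trend removed 16 and 9, and without knockdown replicate 2, which enters through the shared spread, 29 and 5. The control libraries are the same as those used for the knockdown, so the comparisons are not independent.

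The genes called lower lay mostly in the 60S subunit, with 19 of 47, against 3 of 32 in the 40S subunit. The medians were -0.11 and -0.03 on the log2 scale. Whether the subunits differ was not tested. None of the genes for 14 proteins of the 40S head was called in either direction by edgeR (0 of 14), and 0 had an unadjusted p below 0.05. DESeq2 also called 0, while the fit of only these groups called 1 higher and 3 lower.

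RPL12, at the base of the stalk, had the lowest log2 fold change. It was at 429.8, 381 and 405 CPM in PRGL493 libraries, against 541, 548 and 558 CPM in control libraries. All PRGL493 libraries lay well below the nearly equal controls. The log2 fold change was -0.44 (SE 0.08, edgeR adjusted p = 0.00035). RPL3, next to the peptidyl transferase centre, was at 812, 803 and 787 CPM in PRGL493 and 1075, 1089.7 and 1007 CPM in control libraries. The groups were far apart, and the change was -0.40 (SE 0.06, edgeR adjusted p = 2.4e-05). RPS2, of the mRNA entry channel, was at 699.9, 645 and 647 CPM in PRGL493 and 903, 879 and 872 CPM in control libraries. Again no library overlapped, and the change was -0.41 (SE 0.07, edgeR adjusted p = 0.00025). RPL10A, the protein of the L1 stalk that guides the leaving tRNA, was at 466, 448 and 442 CPM in PRGL493 and 574, 560.3 and 575 CPM in control libraries, without overlap, at -0.33 (SE 0.07, edgeR adjusted p = 0.0006).

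The mRNAs of both proteins that carry 5S rRNA fell. RPL5 was at 689, 644 and 679.6 CPM in PRGL493 and 761, 806 and 809 CPM in control libraries, and its groups did not overlap. Its change was -0.24 (SE 0.06, edgeR adjusted p = 0.003). RPL11 was at 253, 230.3 and 249.7 CPM in PRGL493 and 299.8, 296 and 297 CPM in control libraries, and its groups did not overlap either, at -0.28 (SE 0.05, edgeR adjusted p = 0.00039). RPL9, a 60S protein near the stalk base, was at 318, 295 and 313 CPM in PRGL493 and 372, 379 and 389.9 CPM in control libraries. Every PRGL493 library lay below the controls, at -0.30 (SE 0.06, edgeR adjusted p = 0.00087). RPS24, a 40S protein altered in some families with Diamond-Blackfan anaemia, was at 221, 195 and 213 CPM in PRGL493 and 259, 261 and 253 CPM in control libraries. The groups did not overlap, at -0.30 (SE 0.06, edgeR adjusted p = 0.00045). All of these and RPL41 (-0.29), RPL35A (-0.25), RPL37A (-0.25), RPL6 (-0.22), RPL7 (-0.20) and RPSA (-0.27) kept the call in each of the 21 other settings, making 14 of the 22. RPL7 is named for that count, and RPL8 for a count that follows, after their values were seen.

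The only member called higher was RPLP2, and only just. PRGL493 libraries held 239, 205 and 222 CPM of RPLP2, against 196, 201 and 201 CPM in control libraries. The groups did not overlap, but PRGL493 replicate 2 lay close to the controls. At 0.15 (SE 0.06, edgeR adjusted p = 0.049) the call was lost under DESeq2 (adjusted p = 0.072) and in 10 other settings. Its partners were not called, with RPLP1 at 0.11 (SE 0.06, edgeR adjusted p = 0.15) and RPLP0 at -0.02 (SE 0.07, edgeR adjusted p = 0.84). In 6 other settings RPLP1 was called higher, among them without knockdown replicate 2 (edgeR adjusted p = 0.045) and, at 0.17, with the length trend removed (edgeR adjusted p = 0.0042). RPS6 was at 439, 410.2 and 446 CPM in PRGL493 and 477, 481 and 485 CPM in control libraries, which did not overlap, and -0.16 (SE 0.07, edgeR adjusted p = 0.086) did not pass. It was called lower in 5 other settings, among them without knockdown replicate 1 (edgeR adjusted p = 0.02) and without knockdown replicate 2 (edgeR adjusted p = 0.0029). RPS4X, at -0.03, and RPS27A, at 0.00, were not called (edgeR adjusted p = 0.76 and 0.98).

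Set side by side, 16 members were called higher in knockdown and lower in PRGL493, each against the shared control libraries, beside 2.42% of all genes tested. They are 14 genes of the 60S subunit, RPL5, RPL6, RPL9, RPL12, RPL17, RPL26, RPL31, RPL32, RPL35, RPL35A, RPL36, RPL37, RPL37A and RPL41, and 2 of the 40S subunit, RPS24 and RPSA. In the first comparison their log2 fold changes ran over 0.16 to 0.48 and in the second over -0.44 to -0.16. A further 38 members were called higher in knockdown only, 6 lower in PRGL493 only (RPL3, RPL7, RPL8, RPL10A, RPL11 and RPS2) and 18 in neither. RPLP2 was called higher in both. Of the 16, 15 kept both calls without knockdown replicate 2 and 6 with the length trend removed. The number was also 6 without control replicate 1, and it was 9 without PRGL493 replicate 2, 9 without control replicate 2 and 8 without control replicate 3. RPL41, RPL9 and RPL35A kept both calls in every setting.

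Knockdown and PRGL493 cells were also compared directly, which leaves the control libraries out of the difference. Here 69 of 79 members were called higher in knockdown, beside 24.4% of all genes tested, and 1 was called lower, beside 26.0%. The median log2 difference was 0.35 over the members and -0.01 over all genes. In 64 members all knockdown libraries lay above all PRGL493 libraries, beside 27.3% of all genes, and in 1 all lay below, beside 28.7%. Without knockdown replicate 2 the counts were 62 and 2, and with the length trend removed 50 and 4 (median 0.18).

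RPL41 differed most. It was at 156, 148 and 124 CPM in knockdown and 85.4, 79.4 and 85.3 CPM in PRGL493 libraries, and no library came near the other group. The log2 difference was 0.77 (SE 0.07, edgeR adjusted p = 3.4e-07). RPL12 followed at 577, 751 and 653 CPM in knockdown and 429.8, 381 and 405 CPM in PRGL493 libraries. Its groups were also well apart, at 0.70 (SE 0.08, edgeR adjusted p = 3.3e-06). RPS29 was at 74.5, 69.5 and 55.8 CPM in knockdown and 44.5, 40.4 and 43.7 CPM in PRGL493 libraries, at 0.63 (SE 0.09, edgeR adjusted p = 3.3e-05). RPL9 was at 439, 527 and 454 CPM in knockdown and 318, 295 and 313 CPM in PRGL493 libraries, at 0.62 (SE 0.06, edgeR adjusted p = 5.0e-07). Neither of these overlapped. RPL35A, another gene of Diamond-Blackfan anaemia, was at 141, 147 and 132 CPM in knockdown, 102, 91.2 and 95.7 CPM in PRGL493 and 117, 112 and 115 CPM in control libraries. Its 3 groups were each apart from the others, at 0.54 (SE 0.06, edgeR adjusted p = 9.3e-07) between knockdown and PRGL493.

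The members were also counted by TOP tract. In knockdown 34 of 46 members with a tract at an annotated start were called higher (median log2 fold change 0.26), 10 of 17 with an entry but no tract (0.22) and 11 of 16 with no entry (0.25). Of all genes tested 14.7% were called higher. These classes were not counted again without knockdown replicate 2. In PRGL493 11 of the 46 were called lower (-0.08), 6 of the 17 (-0.06) and 5 of the 16 (-0.09), beside 20.4% of all genes tested. The differences between these classes were not tested. The 81 genes lie on 21 chromosomes, with 12 on chromosome 19. Of those 12, 5 were called higher in knockdown and 1 lower in PRGL493.

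Of the 4 paralogs RPS27L and RPL39L passed the filter. RPS27L, a paralog of RPS27 that p53 induces, was at 21.0, 20.0 and 20.7 CPM in knockdown, 26.4, 21.4 and 23.8 CPM in PRGL493 and 21.7, 19.0 and 21.5 CPM in control libraries. Knockdown libraries sat among the controls, at -0.01 (SE 0.08, edgeR adjusted p = 0.92). PRGL493 libraries lay at or above them, with replicate 2 inside their range, at 0.20 (SE 0.08, edgeR adjusted p = 0.054). That value lay just past the threshold, and RPS27L was called higher in PRGL493 in 11 of the 21 other settings, for example at 0.27 with the length trend removed (edgeR adjusted p = 0.0086). It was the only member called lower in knockdown than in PRGL493, at -0.22 (SE 0.08, edgeR adjusted p = 0.032), and that call was lost in 5 other settings, among them without PRGL493 replicate 1 (edgeR adjusted p = 0.25). RPL39L, the testis paralog of RPL39, was at 8.94, 10.3 and 9.31 CPM in knockdown, 6.25, 6.99 and 6.94 CPM in PRGL493 and 7.70, 7.53 and 8.01 CPM in control libraries. All knockdown libraries were above and all PRGL493 libraries below the controls. The change was 0.30 (SE 0.09, edgeR adjusted p = 0.023) in knockdown, not called without knockdown replicate 2 (edgeR adjusted p = 0.08), and -0.21 (SE 0.10, edgeR adjusted p = 0.096) in PRGL493.

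Some counts could be split with near-identical copies. RPSA, a 40S protein also known as the laminin receptor, was at 725, 916 and 790.1 CPM in knockdown, 594, 556 and 559.9 CPM in PRGL493 and 676, 715 and 673 CPM in control libraries. Its 3 groups did not overlap, and it was called at 0.24 (SE 0.07, edgeR adjusted p = 0.016) in knockdown and -0.27 (SE 0.07, edgeR adjusted p = 0.0046) in PRGL493. The knockdown call was lost without control replicate 1 (edgeR adjusted p = 0.063), without control replicate 3 (edgeR adjusted p = 0.066), and with the length trend and knockdown replicate 2 both removed (edgeR adjusted p = 0.063). Its pseudogene RPSAP58 carried counts equal to between 22.4% and 28.4% of those of RPSA in a library, and the sum over the 31 pseudogene rows was at most 0.0292% of the counts of a library. RPSAP58 made up 77.2% of that sum. With PRGL493 RPSAP58 was called lower as well, at -0.38 (SE 0.09, edgeR adjusted p = 0.0046). The estimated counts of 8 members, RPL10, RPL13A, RPL15, RPL17, RPL21, RPL36A, RPS10 and RPSA, were off a whole number by more than 0.01 in at least 1 library, which is where counts were divided between rows. RPL17, RPL36A and RPS10 each have a read-through row of their own, with a mean of 2.4 CPM or less in every group. Values for these 8 genes are uncertain to that extent.

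Genes close to the ribosome were read from lists in the same fit. Over all genes tested, 14.7% were called higher and 15.3% lower in knockdown, and 21.4% higher and 20.4% lower in PRGL493. Of 6 related genes outside the rule, 1 was called higher and 1 lower in knockdown, FAU and RPL7L1, and 2 higher and 2 lower in PRGL493. These are 16.7% each way in knockdown and 33.3% each way in PRGL493. FAU, which makes RPS30 as a fusion with a ubiquitin-like protein, was at 0.23 (SE 0.06, edgeR adjusted p = 0.012) in knockdown. RPL7L1, a paralog of RPL7, was at -0.18 (SE 0.05, edgeR adjusted p = 0.0093). RPL22L1, the paralog of RPL22, was at 32.8, 36.0 and 33.1 CPM in knockdown, 12.6, 10.8 and 14.2 CPM in PRGL493 and 35.4, 31.2 and 33.5 CPM in control libraries. Its PRGL493 libraries stood far below both other groups. With PRGL493 it changed by -1.41 (SE 0.09, edgeR adjusted p = 1.9e-09), and with knockdown by 0.03 (SE 0.08, edgeR adjusted p = 0.84). RPL36AL, a paralog of RPL36A, was at 94.5, 83.7 and 90.4 CPM in PRGL493 and 67.9, 71.4 and 67.2 CPM in control libraries, with no overlap. It rose with PRGL493 by 0.38 (SE 0.06, edgeR adjusted p = 8.8e-05). It was not called in knockdown (edgeR adjusted p = 0.27).

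Among 13 non-coding host genes of small nucleolar RNAs, which guide rRNA modification, 8 were called higher and 2 lower in knockdown, with a median log2 fold change of 0.35. In PRGL493 10 of them were called lower and 0 higher by edgeR, with 0 higher at an unadjusted p below 0.05 and 0 by DESeq2, and the median was -0.67. The shares were 61.5% higher and 15.4% lower in knockdown, beside 14.7% and 15.3% of all genes tested. In PRGL493 76.9% were lower, beside 20.4% of all genes. Without knockdown replicate 2 the knockdown counts were again 8 and 2. GAS5 was at 123, 149.6 and 136 CPM in knockdown, 39.3, 37.8 and 39.0 CPM in PRGL493 and 92.9, 88.7 and 96.2 CPM in control libraries. All 3 groups were apart, at 0.56 (SE 0.06, edgeR adjusted p = 7.2e-06) in knockdown and -1.26 (SE 0.07, edgeR adjusted p = 3.1e-10) in PRGL493. ZFAS1 was at 103, 115 and 104 CPM in knockdown, 32.8, 27.9 and 33.7 CPM in PRGL493 and 70.7, 70.7 and 73.0 CPM in control libraries, likewise apart, at 0.59 (SE 0.07, edgeR adjusted p = 6.1e-06) and -1.18 (SE 0.07, edgeR adjusted p = 1.2e-09). SNHG3 was lower in both, at -0.86 (SE 0.06, edgeR adjusted p = 1.1e-08) in knockdown and -1.46 (SE 0.06, edgeR adjusted p = 1.3e-11) in PRGL493.

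Of 35 ribosome biogenesis factors, which process rRNA and assemble subunits, 3 were called higher and 3 lower in knockdown (median 0.01). In PRGL493 23 were called lower and 0 higher by edgeR, with 0 higher at an unadjusted p below 0.05 and 0 by DESeq2 (median -0.28). The share called lower in PRGL493 was 65.7%, beside 20.4% of all genes tested. In knockdown 8.57% were called each way, beside 14.7% higher and 15.3% lower of all genes. NPM1, a nucleolar chaperone, was at 1240.0, 1321 and 1212 CPM in knockdown, 813, 805 and 852 CPM in PRGL493 and 1187, 1168 and 1204 CPM in control libraries. It was far lower in every PRGL493 library, at -0.53 (SE 0.05, edgeR adjusted p = 2.7e-07). WDR12, which acts in 60S assembly, was at 29.3, 28.2 and 30.9 CPM in PRGL493 and 48.5, 47.5 and 48.97 CPM in control libraries. Its groups were far apart, at -0.71 (SE 0.06, edgeR adjusted p = 2.1e-07). Of 14 genes of the RNA polymerase I machinery 3 were called higher and 1 lower in knockdown, and 1 higher and 7 lower in PRGL493. Of 15 dedicated chaperones and importers of ribosomal proteins 1 was called higher and 2 lower in knockdown, and 4 higher and 6 lower in PRGL493. TSR2, the escort of RPS26, was at 26.4, 25.8 and 25.8 CPM in PRGL493 and 19.9, 19.2 and 20.1 CPM in control libraries. It rose without overlap, at 0.40 (SE 0.06, edgeR adjusted p = 9.2e-05).

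Of 20 other mRNAs of the TOP class 3 were called higher and 0 lower by edgeR in knockdown (median 0.07), with 0 lower at an unadjusted p below 0.05 and 0 by DESeq2. In PRGL493 1 was called higher and 7 lower (median -0.08), or 5.0% and 35.0%, beside 21.4% and 20.4% of all genes. EEF1A1, the factor that brings tRNA to the ribosome, was at 16864, 19719 and 17185 CPM in knockdown and 15518, 15983 and 15762 CPM in control libraries. The groups did not overlap, and the change was 0.19 (SE 0.05, edgeR adjusted p = 0.016). Of 25 genes of mTORC1, LARP1 and MYC control 3 were called higher and 6 lower in knockdown, and 6 higher and 6 lower in PRGL493. MYC, which drives transcription of ribosome genes, was at 176, 199 and 190.0 CPM in knockdown, 252, 266 and 255 CPM in PRGL493 and 406, 396 and 388 CPM in control libraries. It was lower in every library of both treatments than in any control. EIF4EBP1, the translation repressor that mTORC1 phosphorylates, was called in opposite directions, at 0.33 (SE 0.07, edgeR adjusted p = 0.0016) in knockdown and -0.51 (SE 0.07, edgeR adjusted p = 2.3e-05) in PRGL493. Of 5 genes of the p53 and 5S rRNA axis 1 was called lower in knockdown and 0 higher by edgeR, with 0 higher at an unadjusted p below 0.05 and 0 by DESeq2. In PRGL493 1 was called higher and 1 lower. Among 5 genes 1 call is 20.0%, near the 21.4% and 20.4% of all genes called in PRGL493. In knockdown 15.3% of all genes were called lower.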

How the data were processed

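RNA was sequenced from 9 libraries, and the authors deposited a table of expected counts, 1 row per gene symbol, without scaling to library size, made with GRCh38 per the submitters' processing notes. A fraction of 10.5% of these values was not whole. Whole counts had been assumed, so the expected counts as deposited were rounded before testing. The aligner, the counter, the annotation release and the strand setting: each is not given in the sources used here.

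Genes were filtered with filterByExpr, scaled by TMM, and 14135 were fitted with edgeR 4.0.16 (R 4.3.3), a robust quasi-likelihood model of group over all 9 libraries with 6 residual degrees of freedom. Adjusted p-values are Benjamini-Hochberg over all genes tested, and genes below 0.05 were called. The biological coefficient of variation was 6.38%. Levels are TMM-scaled CPM. DESeq2 1.42.0, other scalings and filters, a fit of only the groups compared, a replicate block, each library left out, and a loess trend on transcript length removed per library were alternatives. Lengths are medians of GENCODE release 29 transcripts, which all 81 members had. In counts simulated for knockdown against control with 14135 genes, 35% of 100 changes of log2 0.25 and 86% of 100 of log2 0.5 were recovered, with 10 false calls. The changed genes were drawn from all those above 1 CPM, and no simulated library carried a length trend. These rates are therefore not rates for the members, nor for libraries such as knockdown replicate 2.

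The members, gene lists and rules were chosen with earlier results of these data known. Named members are, per comparison, up to 8 called with the largest positive and 8 with the largest negative fold changes, up to 4 more with the smallest adjusted p, the 3 highest and 3 lowest per length, a fixed group with the paralogs, and those called in opposite directions. Each other list gives up to 4 called genes, taken by smallest adjusted p. The result of 1 listed gene, and an alternative membership that holds it, are not reported here. EdgeR's test gave every adjusted p unless DESeq2 is named.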

Additional observations from a re-analysis of the deposited data

How the results depend on the processing

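The 55 knockdown calls were 35 with the length trend and knockdown replicate 2 both removed, an alternative chosen after seeing the data, with 1 lower and a median log2 fold change of 0.12. For PRGL493 against control the 1 higher call was 0 with DESeq2, TMM factors without ribosomal protein genes, upper-quartile factors or at least 1 CPM in 3 libraries. It was 2 without a filter, 3 with library totals, 5 with only the groups compared, 9 with the length trend removed, 10 without knockdown replicate 2 as well, and 11 with a length and GC trend removed, also chosen after seeing the data. The lower calls were 34 with only the groups compared. Between knockdown and PRGL493 the 1 lower call was 0 with library totals or upper-quartile factors, 4 with the length trend removed, 5 without knockdown replicate 2 as well and 5 with length and GC. The median difference was then 0.18, 0.17 and 0.16. Leaving out the 50 most abundant other genes put the members at 4.43% of counts in knockdown, 3.53% in PRGL493 and 3.76% in control cells.

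Over the 9 fits that each left out a library, knockdown gave 42 to 74 higher and 0 lower calls with medians of 0.18 to 0.29. PRGL493 gave 0 to 5 higher and 14 to 29 lower calls with medians of -0.11 to -0.05, and knockdown against PRGL493 gave 60 to 75 higher and 0 to 2 lower calls with medians of 0.27 to 0.40.

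Deviations of same-numbered libraries correlated at -0.084 to 0.152 over all genes and at -0.307 to 0.528 over the members, so not every pair exceeded 0.1 and the numbers were not taken to pair the libraries. Between control and knockdown, however, the same-numbered values over all genes were 0.108, 0.152 and 0.0619. In the other pairs of groups they were all negative. Whether the numbers pair control and knockdown libraries was not tested. With a replicate block 53 members were called higher in knockdown, 21 lower and 1 higher in PRGL493, and 67 higher and 1 lower between the treatments. With the length trend removed and the replicate block, 39 were called higher in knockdown, 8 higher in PRGL493, and 4 lower between the treatments with a median of 0.18.

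Among values of named genes called in either setting, only RPLP1 turned direction, in knockdown against PRGL493, at -0.060 with the length trend removed, -0.0612 with the replicate block as well, -0.032 with length and GC, and -0.072 without knockdown replicate 2 as well. Over 126 results on named genes and 21 settings, 2439 values stayed on their side of the threshold, 158 lost the call and 45 gained it. Of the 2439, 59 had the other sign, none of them called and none beyond 0.053 in size, and RPLP0 in PRGL493 was among them. RPL3L and RPL10L, with at most 2 counts in any library, could not be tested.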
